A study of Mus musculus with 6 samples.

Results

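The genes described here are those of the myosin light chains and of the kinases that phosphorylate them, 10 genes chosen by symbol from the 35976 genes of the expression tables: Myl1, Myl2, Myl3, Myl4, Myl6, Myl6b, Myl9, Mylpf, Mylk and Mylk2. RNA was sequenced from mouse skeletal muscle satellite cells, the stem cells of the tissue, grown on Matrigel in growth medium and collected 4 days after plating. Before plating, cells bearing CD31, CD45, CD11b or Sca1 had been depleted with magnetic beads. The NF-YA cKO mice carried floxed Nfya alleles together with Pax7-CreERT2, a tamoxifen-inducible Cre recombinase driven by the Pax7 promoter, which is active in satellite cells. The NF-YA fl/fl mice carried the floxed alleles without Cre. Both genotypes received tamoxifen, the labels give an age of 5 to 7 weeks for all mice, and each genotype had 3 libraries. NF-YA is the regulatory subunit of the trimeric factor NF-Y, which binds the CCAAT sequence in promoters, and the comparison asks how expression in satellite cells differs when the gene was deleted.

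A myosin motor has heavy chains that hydrolyse ATP and pull on actin, and each head carries an essential and a regulatory light chain wrapped around its lever arm. Muscle fibres use sarcomeric light chains that differ between fast, slow, cardiac and embryonic muscle, while smooth muscle and nonmuscle cells use other genes. Calcium-calmodulin activates the myosin light chain kinases, which phosphorylate the regulatory chain, and myosin phosphatase removes the phosphate. In skeletal myogenesis the sarcomeric chains are late products, made as myoblasts leave the cell cycle and fuse.

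The libraries held between 26936230 and 41118984 expected counts, so that 3 counts stood for 0.0705 to 0.115 CPM, the count scaled to a common library size. The entry for the deleted Nfya allele reached 2.52, 2.68 and 3.73 TPM, a level scaled to both transcript length and library size, in the NF-YA cKO libraries and 0 in all NF-YA fl/fl libraries, while the other Nfya transcripts stood at 5.46 to 6.73 TPM in the former and 7.33 to 9.87 TPM in the latter. The Nfya gene as a whole had a log2 fold change of -0.06 ± 0.18 (SE, n = 3 per genotype; edgeR adjusted p = 0.814). Xist, expressed from the inactive X chromosome of females, had at least 26727 expected counts in each NF-YA cKO library and at most 14 in the others, and Y-linked Ddx3y had at most 3 in the former and at least 2317 in the latter. The study's methods describe the injected mice as male. Differences between the genotypes and differences between the sexes cannot be told apart here. The macrophage markers Lyz2, Cd68, Adgre1, Csf1r, Ptprc and Itgam summed to 122 to 237 CPM in the NF-YA cKO libraries against 4.82 to 10.9 CPM in the controls, and all 6 were called higher. Among the genes of the antigens used for depletion, Itgam (CD11b) was at 6.20 to 11.3 CPM in NF-YA cKO and 0.862 to 1.45 CPM in the controls. Ptprc (CD45) was at 1.15 to 3.06 against 0 to 0.17 CPM, and Pecam1 (CD31) at 1.95 to 2.2 against 0.994 to 1.59 CPM. Ly6a (Sca1) was at 3.13 to 5.10 CPM in NF-YA cKO and at 18.5, 26.9 and 2.85 CPM in the controls. Of the satellite cell and myoblast markers Pax7, Myf5, Myod1, Cdh15, Itga7 and Vcam1, all were detected in every library, and their sum ran from 1154 to 1257 CPM in NF-YA cKO and 1005 to 2448 CPM in the controls. Cdh15 was called lower (log2 fold change -1.78 ± 0.13, edgeR adjusted p = 0.000272), and the other 5 were not called, Pax7 (log2 fold change 0.94) and Vcam1 (0.86) lying above the controls in every NF-YA cKO library and Itga7 (-1.25) below them. The 4 markers of differentiating muscle (Myog, Ckm, Acta1, Tnnt3) summed to 32.4 to 83.6 CPM in NF-YA cKO and 3159 to 4601 CPM in NF-YA fl/fl. Fibroblast and fibro-adipogenic markers (Pdgfra, Col1a1, Dcn, Lum, Ly6a) summed to 1308 to 1645 CPM in NF-YA cKO and to 1091, 1615 and 386 CPM in the controls, and Col1a1 carried most of these sums. Lum was called higher (log2 fold change 2.98 ± 0.59, edgeR adjusted p = 0.00841), and the other 4 were not called. Of these, Dcn (log2 fold change 1.71) lay above the controls in every NF-YA cKO library, while Ly6a (-2.05) overlapped. Endothelial and Schwann cell markers stayed at or below 20.2 CPM in sum in every library. The part of these differences in the results below was not tested, and in bulk RNA fewer cells of a type and less RNA per cell cannot be told apart.

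Where the sequences of the members bear on the results, they are shown first. Myl1 lies on chromosome 1 of GRCm38 (mm10), minus strand, from 66924295 to 66945404, and encodes both fast essential chains from alternative starts. MLC1f, of 188 codons, starts in the exon at 66944792 to 66945143, and MLC3f, of 150 codons, starts in an internal exon at 66935276 to 66935354. The coding starts particular to each form, 142 and 28 bases long, are printed in lower case with the following 20 bases, shared by both, in capitals, since these stretches let reads be assigned to one form.

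MLC1f: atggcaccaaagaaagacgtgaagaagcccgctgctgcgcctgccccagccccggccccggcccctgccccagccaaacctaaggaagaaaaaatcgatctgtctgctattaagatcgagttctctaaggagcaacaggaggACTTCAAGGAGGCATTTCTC
MLC3f: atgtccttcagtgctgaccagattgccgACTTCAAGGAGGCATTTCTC

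Myl6 (chromosome 10, minus strand, 128490860 to 128494145), the essential chain of smooth muscle and nonmuscle myosin, has a 45-base alternative exon at 128491720 to 128491764 that changes the end of the protein. Both forms have 151 codons and share 427 coding bases. The last 29 coding bases, stop codon included, are printed with the 14 that differ in capitals.

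Myl6 without the alternative exon: AGCttgtCCggATGGtGctgAATggCtga
Myl6 with the alternative exon: CATttgtGAggCATAtCctgTCGggGtga

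Upstream sequence from RefSeq (GRCm38.p6) matched 9 of the 10 members, with 11 start sites. Mylk2 was the member without a match. Within the 250 bases before each start, on both strands, CCAAT was found in 4 of the 11 windows, compared with 33.8% of all 32851 windows of this length. The E-box CANNTG, bound by myogenic factors such as MyoD, was found in 7 of the 11, against 66.2% of all windows. The CArG box, bound by serum response factor, was found in 3 of the 11 against 1.47%, and the MEF2 site in 0 of the 11 against 2.92%. The CArG windows were those of Myl3, Myl9 and the downstream Myl6 start, the last lying wholly in annotated exons. Neither Myl9 nor Myl6 was called, and Myl3 was not tested. The CCAAT windows were those of Myl1, Myl3, Mylk and the upstream Myl6 start, and the match of Myl1 lay inside its annotated exon. The Myl1 window was that of the MLC1f start, and the MLC3f start had no window. Letters found in a window are a description of the sequence and not of binding. Upstream stretches outside annotated exons are shown for 3 genes that were called lower and for Myl6, which was not, with E-boxes and CCAAT in capitals. The window of Myl4, also called lower, held none of these motifs and is not shown, because most of its bases lie in exons of another gene. The Mylpf window is chr7:127211358-127211607 (plus strand), that of Myl1 chr1:66945144-66945290, that of Myl6b chr10:128498686-128498935 and that of Myl6 chr10:128493901-128493999, with Myl1, Myl6b and Myl6 on the minus strand. Upstream here means before a RefSeq start site. The stretches of Mylpf, Myl1 and Myl6 lie within the annotated span of their gene, and that of Myl6b lies outside it. In these stretches the capitals were an E-box except for the ATTGG of Myl6, which is CCAAT on the other strand and begins 42 bases before the start.

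Mylpf upstream: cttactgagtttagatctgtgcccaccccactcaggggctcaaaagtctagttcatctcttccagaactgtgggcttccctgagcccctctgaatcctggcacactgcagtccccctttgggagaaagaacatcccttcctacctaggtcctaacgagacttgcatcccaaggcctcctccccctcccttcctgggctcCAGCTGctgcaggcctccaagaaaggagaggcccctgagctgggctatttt
Myl1 upstream: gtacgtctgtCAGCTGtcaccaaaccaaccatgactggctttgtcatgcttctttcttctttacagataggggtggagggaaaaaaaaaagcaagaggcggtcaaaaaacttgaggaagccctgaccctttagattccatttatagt
Myl6b upstream: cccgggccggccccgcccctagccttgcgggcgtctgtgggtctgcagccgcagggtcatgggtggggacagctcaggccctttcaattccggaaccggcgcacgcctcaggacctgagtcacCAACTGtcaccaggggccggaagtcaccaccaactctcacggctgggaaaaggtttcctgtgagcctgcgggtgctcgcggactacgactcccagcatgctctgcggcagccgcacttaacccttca
Myl6 upstream: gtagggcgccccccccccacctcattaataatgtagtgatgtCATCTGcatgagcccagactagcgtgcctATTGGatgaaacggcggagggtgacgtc

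Of the 10 members, 9 passed the filter of more than 10 counts in at least 2 libraries and were tested. Of the sarcomeric light chain genes, Myl1, Myl4, Myl6b and Mylpf were lower in NF-YA cKO cells, the skeletal muscle kinase Mylk2 was higher, and Myl2, Myl6, Myl9 and Mylk were not called. A gene was called where the adjusted p of edgeR's quasi-likelihood test was under 0.01 and the log2 fold change was past 1 in size. Of all 17348 genes tested, 7.67% were called lower and 4.65% were called higher, against 4 and 1 of the 9 members. In normalised CPM, 6 of the 9 members lay below the controls in every NF-YA cKO library, 2 lay above and 1 overlapped, where 26.2% of all genes lay below and 29.1% above. Members tested had a median log2 fold change of -3.86, against -0.016 for all genes tested. Levels below are in TPM, which allows for transcript length, and log2 fold changes are from counts.

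**Figure D1:**
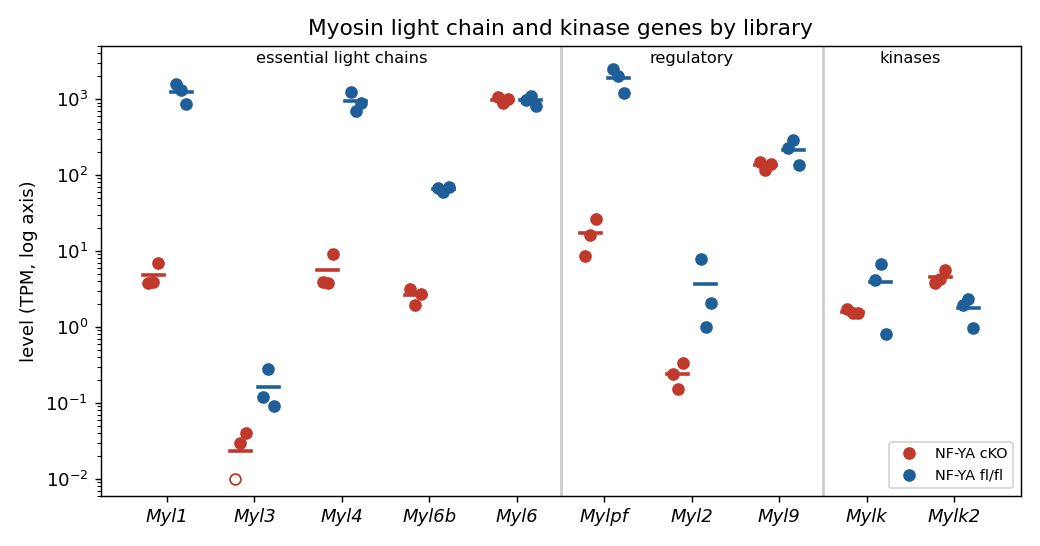
Level of each member in every library (TPM, log axis). Points are single libraries, red for NF-YA cKO and blue for NF-YA fl/fl, bars are group means, and the open point at the bottom is a library with 0 TPM. Myl1, Myl4 and Mylpf are at 691 TPM or more in every control and at 26.4 TPM or less in NF-YA cKO, while Myl6 is between 799 and 1088 TPM in all libraries.

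Among the essential chains, the fast chain gene Myl1 showed the largest change. Its level was 3.79, 3.87 and 6.92 TPM in the NF-YA cKO libraries and 1583, 1296 and 849 TPM in the controls, with no overlap. The log2 fold change was -7.91 ± 0.35 (SE, n = 3 per genotype; edgeR adjusted p = 5.72e-05), a level 241-fold lower. Myl4, the essential chain of atrial and embryonic muscle (chromosome 11, plus strand, 104550663 to 104595753), stood at 3.95, 3.83 and 9.02 TPM in NF-YA cKO and at 1241, 691 and 883 TPM in NF-YA fl/fl. Every NF-YA cKO library was again far below every control, and the log2 fold change was -7.32 ± 0.51 (SE, n = 3; edgeR adjusted p = 0.00022). Myl6b, an essential chain found in slow skeletal muscle and nonmuscle cells (chromosome 10, minus strand, 128494157 to 128498685), was at 3.15, 1.94 and 2.75 TPM against 68.3, 59.8 and 69.3 TPM. Its log2 fold change was -4.49 ± 0.24 (SE, n = 3; edgeR adjusted p = 8.73e-05). Myl3, the essential chain of ventricular and slow muscle (chromosome 9, plus strand, 110741861 to 110769798), was not tested. It had 0, 1 and 1 counts in NF-YA cKO and 2, 5 and 2 in the controls, so no fold change was computed.

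Myl6 differed in this from its neighbour Myl6b, from which it is separated by 11 bases on the same strand. Myl6 stood at 1049, 877 and 987 TPM in NF-YA cKO and 982, 1088 and 799 TPM in NF-YA fl/fl, with ranges that overlapped. The log2 fold change was 0.09 ± 0.09 (SE, n = 3; edgeR adjusted p = 0.482), and the within-library log2 ratio of Myl6b to Myl6 was -8.51 ± 0.22 (SD) in NF-YA cKO and -3.85 ± 0.33 in NF-YA fl/fl (n = 3 each; exact two-sided permutation p = 0.1, the smallest that 3 against 3 libraries allow, adjusted over 7 ratios 0.117). In normalised CPM the 3 NF-YA cKO libraries of Myl6 were slightly above all controls (469 to 477 against 413 to 466 CPM), while in TPM they overlapped.

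Among the regulatory chains, Mylpf, that of fast skeletal muscle (chromosome 7, plus strand, 127208890 to 127214298), was the most abundant member in the controls. It was at 2457, 2040 and 1210 TPM there and at 8.64, 16.2 and 26.4 TPM in NF-YA cKO. The log2 fold change was -6.67 ± 0.49 (SE, n = 3; edgeR adjusted p = 0.000271), or 102-fold lower. Myl2, the regulatory chain of ventricular and slow muscle (chromosome 5, plus strand, 122100951 to 122113472), was rare. It had 3, 3 and 6 counts in NF-YA cKO and 86, 12 and 32 in the controls, and did not overlap, with a log2 fold change of -3.86 ± 0.90 (SE, n = 3; edgeR adjusted p = 0.015). This missed the threshold, and the value rested on single libraries. Without NF-YA fl/fl replicate 1 the log2 fold change was -2.75 (edgeR adjusted p = 0.0273), and without NF-YA fl/fl replicate 2 it was -4.35 (edgeR adjusted p = 0.00427). Myl9, the regulatory chain of smooth muscle and nonmuscle cells (chromosome 2, plus strand, 156775420 to 156781658), was at 148, 117 and 138 TPM in NF-YA cKO and 224, 287 and 134 TPM in NF-YA fl/fl. The lowest control lay within the NF-YA cKO range in TPM but above it in CPM (134 against 111 to 120), and the log2 fold change of -0.55 ± 0.15 (SE, n = 3; edgeR adjusted p = 0.0242) did not reach the fold threshold.

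The order of levels within each genotype showed the same contrast. In the controls it ran Mylpf (1903 ± 635 TPM), Myl1 (1243 ± 370), Myl6 (956 ± 146), Myl4 (938 ± 279), Myl9 (215 ± 76.6), Myl6b (65.8 ± 5.21), Mylk (3.91 ± 3.0), Myl2 (3.63 ± 3.67), Mylk2 (1.75 ± 0.710) and Myl3 (0.163 ± 0.102; mean ± SD, n = 3). Neighbours from Mylpf to Myl4, and from Mylk to Mylk2, had ranges that overlapped, and the others were apart. In NF-YA cKO it ran Myl6 (971 ± 87.3 TPM), Myl9 (135 ± 15.7), Mylpf (17.1 ± 8.92), Myl4 (5.60 ± 2.96), Myl1 (4.86 ± 1.78), Mylk2 (4.57 ± 0.925), Myl6b (2.61 ± 0.616), Mylk (1.59 ± 0.121), Myl2 (0.24 ± 0.09) and Myl3 (0.0233 ± 0.0208). There the ranges overlapped between neighbours from Mylpf to Mylk2 and nowhere else. The sarcomeric chains (Myl1, Myl2, Myl3, Myl4, Mylpf and Myl6b) made up 73.9%, 65.6% and 66.1% of the TPM of sarcomeric, smooth muscle and nonmuscle chains in the controls and 1.10%, 1.74% and 2.62% in NF-YA cKO. The nonmuscle part, of Myl6, Myl9, Myl12a and Myl12b, summed to 1473 to 1783 TPM in NF-YA cKO and 1547 to 2143 TPM in the controls and overlapped (exact two-sided permutation p = 0.4). Both parts left out the atrial chain Myl7, which is not a member. Myl7 stood at 8.09, 1.23 and 4.82 TPM in NF-YA cKO and at 0.41, 0 and 0.07 TPM in the controls.

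The shares among the 6 sarcomeric chains were less alike. Myl1 took 29.5%, 31.7% and 28.2% of their summed TPM in the controls and 19.2%, 14.8% and 15.2% in NF-YA cKO, while Mylpf took 45.9%, 49.9% and 40.2% against 43.7%, 62.3% and 58.1%, which overlapped. Myl6b, at 1.28% to 2.3% in the controls, made up 6.05% to 15.9% in NF-YA cKO. The log2 ratio of Myl1 to Mylpf was -1.71 ± 0.47 (SD, n = 3) in NF-YA cKO and -0.60 ± 0.08 in NF-YA fl/fl (exact two-sided permutation p = 0.1, adjusted 0.117). The other ratios were of Mylpf to Myl9, at -3.10 ± 0.88 against 3.15 ± 0.31, and of Myl2 to Mylpf, at -5.55 ± 0.75 against -9.42 ± 1.32, each with the same p. That of Myl4 to Myl1, at 0.14 ± 0.21 against -0.40 ± 0.48, overlapped (exact p = 0.2, adjusted 0.2), and that of Myl3 to Myl1 rested on counts at or near 0. The ratio of Myl2 to Mylpf also rested on few Myl2 counts in NF-YA cKO (3, 3 and 6). Its difference between genotypes was 3.86 with 0.1 TPM added and 5.17 with 1 TPM added.

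Mylk2, the skeletal muscle myosin light chain kinase (chromosome 2, plus strand, 152911352 to 152923068), was higher at 3.84, 4.26 and 5.61 TPM in NF-YA cKO against 1.92, 2.36 and 0.97 TPM in the controls, without overlap. The log2 fold change was 1.50 ± 0.23 (SE, n = 3; edgeR adjusted p = 0.00307), or 2.82-fold. Leaving out any NF-YA cKO library or NF-YA fl/fl replicate 1 raised the adjusted p to between 0.0114 and 0.0221, so this call rests on all of these libraries. Mylk, the kinase of smooth muscle and nonmuscle cells (chromosome 16, plus strand, 34745210 to 35002420), was at 1.73, 1.52 and 1.52 TPM in NF-YA cKO and 4.12, 6.79 and 0.81 TPM in the controls. The controls lay on both sides of the NF-YA cKO libraries because NF-YA fl/fl replicate 3 was lowest of all 6, and the log2 fold change of -1.08 ± 0.49 (SE, n = 3; edgeR adjusted p = 0.124) was not called. Without that library it was -1.51 with an adjusted p of 0.000375.

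NF-YA fl/fl replicate 3 was also the lowest of the 6 libraries in 6 of the 9 smooth muscle and pericyte markers (Tagln, Cnn1, Myh11, Lmod1, Pdgfrb and Cspg4), the lowest control in Rgs5, and the highest library in Smtn (113 CPM against 60.6 to 93.6 CPM), while its Acta2 (1718 CPM) lay among the other controls. Of the 9 markers, Acta2 was called lower in NF-YA cKO (log2 fold change -1.20 ± 0.15, edgeR adjusted p = 0.00155) and the other 8 were not called, and their sum ran from 1343 to 1662 CPM in NF-YA cKO and 2052 to 2727 CPM in the controls, where Acta2 carried most of it. None was at 0 in any library. In NF-YA fl/fl replicate 3, Cnn1 was at 0.950 CPM against 34.6 and 36.6 CPM in the other controls, Myh11 at 0.712 against 6.31 and 12.8 CPM, and Tagln at 64.8 against 346 and 349 CPM. By genotype, Tagln lay above the controls in every NF-YA cKO library, Acta2, Smtn and Rgs5 lay below, and the others overlapped. The fibroblast and fibro-adipogenic markers Pdgfra, Col1a1, Dcn, Lum and Ly6a were also each lowest in NF-YA fl/fl replicate 3. Pdgfra was at 21.6 CPM there against 132 and 147 CPM in the other controls. The part of cells of either kind in the Mylk and Myl9 values was not tested.

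**Figure D2:**
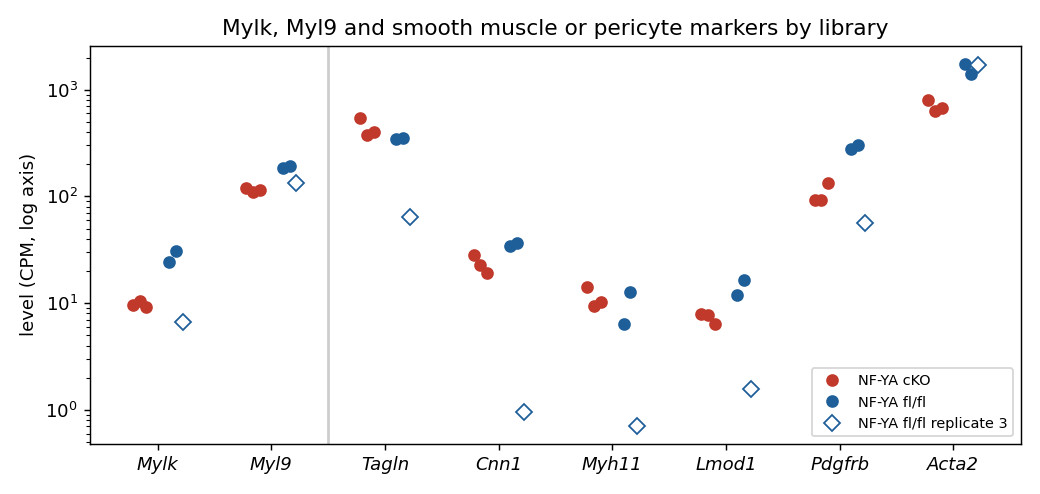
Normalised level (CPM, log axis) of Mylk, Myl9 and 6 smooth muscle or pericyte markers in the 6 libraries, red for NF-YA cKO and blue for NF-YA fl/fl. The open diamond, NF-YA fl/fl replicate 3, is the lowest library for Mylk (6.65 CPM), Tagln, Cnn1, Myh11, Lmod1 and Pdgfrb, but not for Acta2. The listed markers Cspg4, Rgs5 and Smtn are not drawn. That library is the lowest in Cspg4, the lowest control in Rgs5 and the highest library in Smtn.

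**Figure D3:**
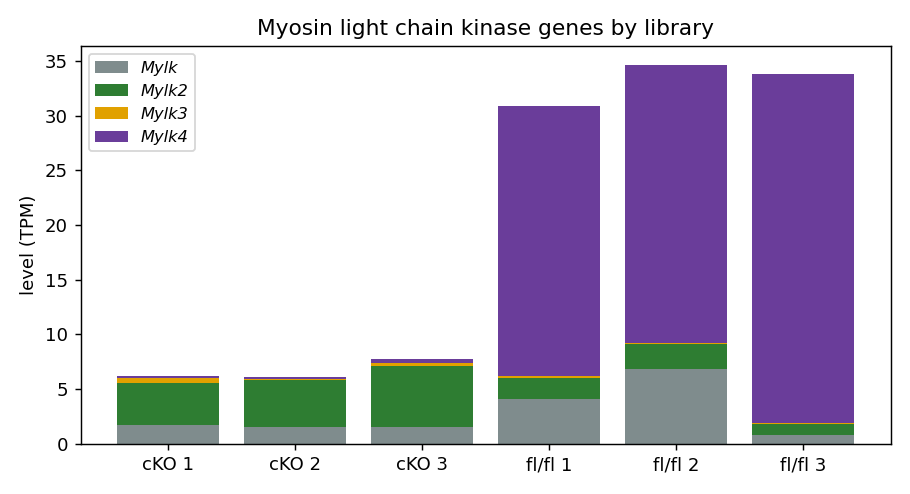
Summed level (TPM) of the genes Mylk, Mylk2, Mylk3 and Mylk4 in each library, with a segment for each gene. Mylk4 makes up 73.3% to 94.5% of the sum in the controls and 3.70% to 4.68% in NF-YA cKO, where Mylk2 is the largest segment.

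The genes Mylk3 and Mylk4, cardiac and striated muscle kinases of the same family, were outside the members. Mylk4 fell from 24.7, 25.4 and 31.9 TPM in the controls to 0.23, 0.25 and 0.36 TPM (log2 fold change -6.53 ± 0.35, SE, n = 3; edgeR adjusted p = 8.73e-05). Mylk3 was low in all libraries, at 0.08 to 0.41 TPM, and was not called (edgeR adjusted p = 0.178). Mylk2 made up 61.8%, 69.5% and 72.9% of the TPM of the 4 genes in NF-YA cKO and 6.21%, 6.81% and 2.87% in the controls. The log2 ratio of Mylk2 to Mylk was 1.45 ± 0.36 (SD, n = 3) in NF-YA cKO and -0.77 ± 0.90 in the controls, where NF-YA fl/fl replicate 3 (0.23) lay above the others (exact two-sided permutation p = 0.1, adjusted 0.117).

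At the transcript level, 32 of the 44 member transcripts passed the filter, and 7 were called lower and 0 higher by edgeR at an adjusted p under 0.01, where 1.01% of all 45367 transcripts tested were called lower and 0.390% were called higher. At an unadjusted p under 0.05, 15 were lower and 4 higher. The 7 were MLC1f, MLC3f, the main transcripts of Mylpf and Myl6b, and 3 of Myl4. Leaving out single libraries reduced the 7 calls to between 0 and 4, the fewest without NF-YA cKO replicate 2 or 3 or NF-YA fl/fl replicate 1. MLC3f was at 2.87, 2.92 and 5.07 TPM in NF-YA cKO and 1082, 869 and 661 TPM in the controls (log2 fold change -7.79 ± 0.36, SE, n = 3; edgeR adjusted p = 0.00186). MLC1f was at 0.92, 0.81 and 1.73 TPM against 490, 416 and 180 TPM (log2 fold change -8.13 ± 0.51, SE, n = 3; edgeR adjusted p = 0.00275). The share of Myl1 TPM in MLC3f was 75.7%, 75.6% and 73.3% in NF-YA cKO and 68.4%, 67.0% and 77.8% in the controls, and overlapped (exact two-sided permutation p = 0.4, adjusted over 31 shares 0.653), so both starts fell together.

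The Myl6 form without the alternative exon made up 69.6%, 69.1% and 64.4% of Myl6 TPM in NF-YA cKO and 56.0%, 63.0% and 38.6% in the controls. The genotypes did not overlap, and NF-YA fl/fl replicate 2 came close to the lowest NF-YA cKO library. The difference in means was 15.2 percentage points (exact two-sided permutation p = 0.1, adjusted 0.282), and 8.19 without NF-YA fl/fl replicate 3. The form with the exon was at 26.7%, 27.4% and 31.6% in NF-YA cKO and at 39.5%, 32.4% and 58.0% in the controls. The main Myl6b transcript (NM_172259.1) took 74.3%, 71.1% and 82.2% of Myl6b TPM in NF-YA cKO and 97.7%, 92.7% and 96.9% in the controls (exact p = 0.1, adjusted 0.282), where the NF-YA cKO shares rest on 50.45 to 75.67 expected counts. RSEM splits reads shared between transcripts, and in NF-YA fl/fl replicate 3 it assigned 97.6% of Mylk TPM to the model XM_006521702.1 and 0 to NM_139300.3, so no Mylk form was compared.

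**Figure D4:**
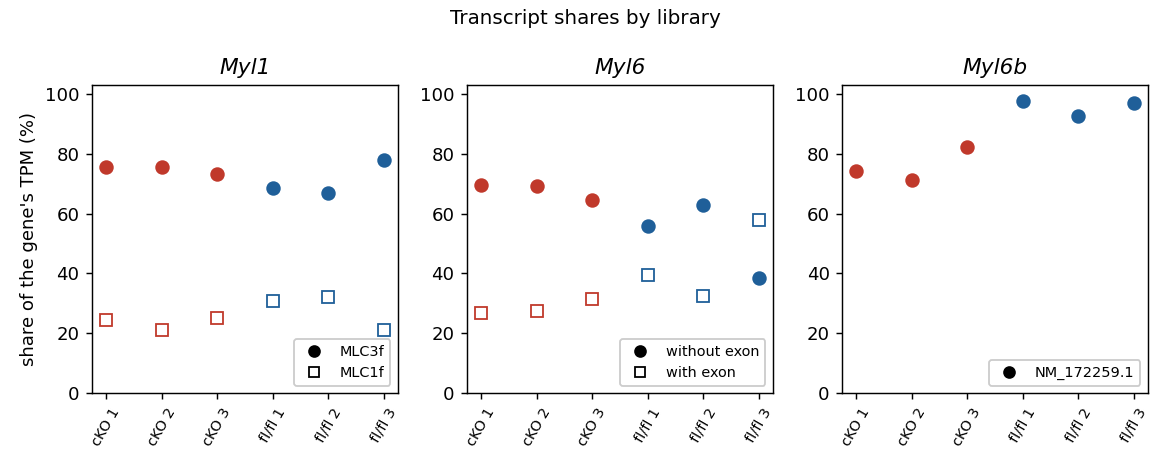
Share of the gene's TPM (%) in the named transcripts of Myl1, Myl6 and Myl6b in each library, red for NF-YA cKO and blue for NF-YA fl/fl. Myl1 shares overlap between genotypes, the Myl6 form without the exon is higher in all 3 NF-YA cKO libraries, and NF-YA fl/fl replicate 3 (38.6%) is farthest from the rest.

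The other genes of the pathway were taken as 39 genes in 6 lists. Of the 38 tested, 11 were called lower, 1 higher and 26 not called, with a median log2 fold change of -0.12. Among all genes tested, 7.67% were called lower and 4.65% higher. All 9 sarcomeric heavy chain genes were lower, with log2 fold changes from -8.96 to -3.59. Myh8, the perinatal heavy chain, fell from 175, 127 and 113 TPM to 0.23, 0.17 and 0.39 TPM (log2 fold change -8.96 ± 0.38, SE, n = 3; edgeR adjusted p = 5.06e-05). Myh1, a fast chain, and Myh7, the slow chain, had log2 fold changes of -8.81 ± 0.41 and -8.54 ± 0.58. None of the 4 smooth muscle and nonmuscle heavy chains was called, Myh9 standing at 1921 to 1971 CPM against 1996 to 2105 CPM.

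None of the 3 calmodulin genes was called (log2 fold changes 0.17 to 0.68, edgeR adjusted p 0.017 to 0.301). All 3 lay above the controls in every NF-YA cKO library, as did 29.1% of all genes tested. Of the 12 other kinases that act on the regulatory chain, Mylk4 was lower and the other 11 were not called, Rock1 and Rock2 among them. Of the 7 genes of myosin phosphatase and its inhibitors, only the inhibitor Ppp1r14c was called, with a log2 fold change of -3.15 ± 0.22 (edgeR adjusted p = 0.00021). Of the other light chains Myl12a and Myl12b, nonmuscle regulatory chains, were not called, Myl10 was not tested, and the atrial regulatory chain Myl7 was called higher on 93, 22 and 79 counts against 4, 0 and 1 (edgeR adjusted p = 0.00945). Leaving out any 1 of the 6 libraries ended that call.

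**Figure D5:**
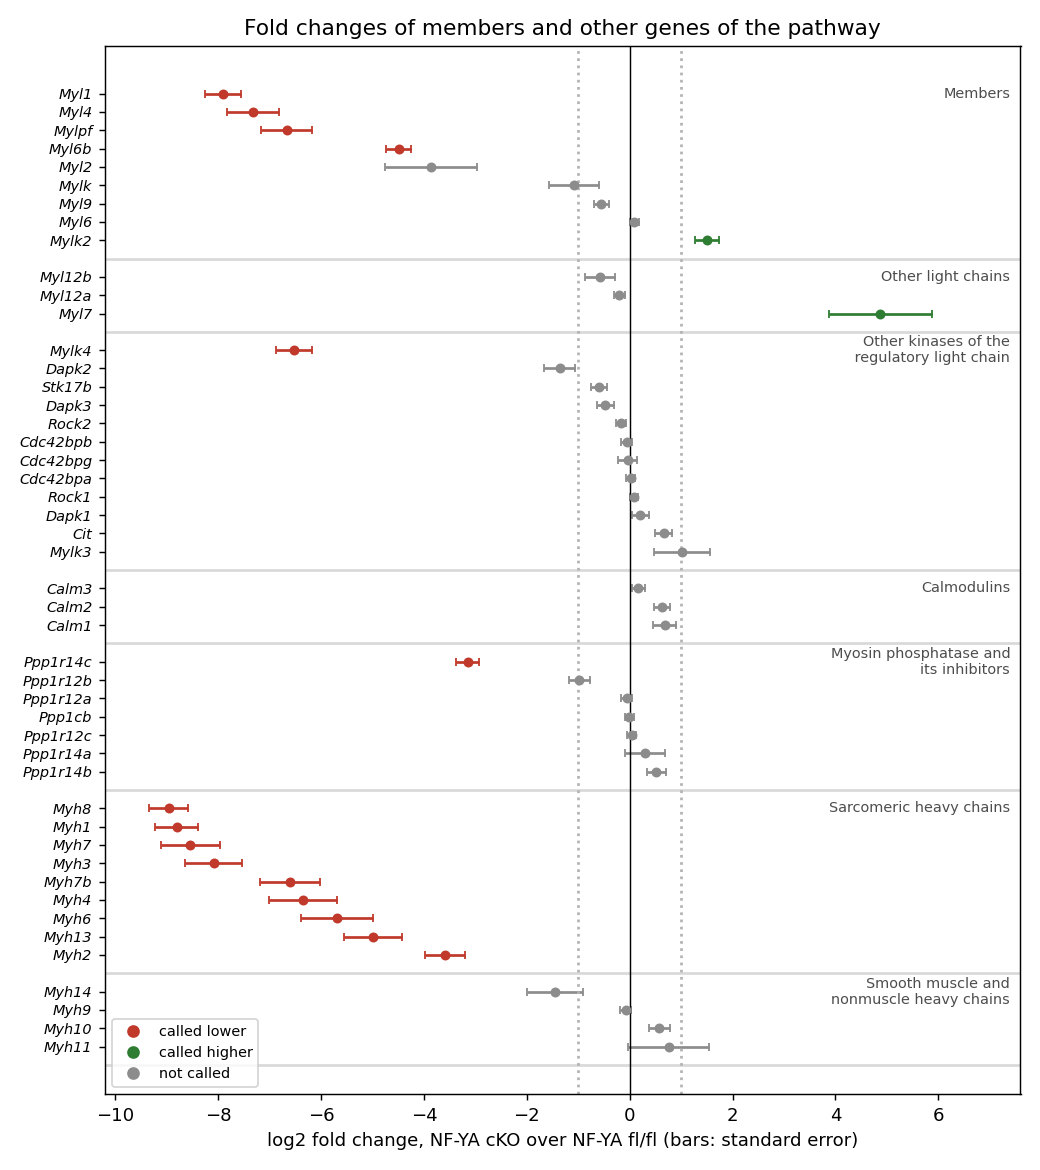
Log2 fold change of NF-YA cKO over NF-YA fl/fl for the 9 members and 38 other pathway genes tested, with standard errors (n = 3 per genotype) and dotted lines at a change of 1 in each direction. The sarcomeric light chain members tested, the sarcomeric heavy chains and Mylk4 lie far to the left, from -8.96 to -3.59 for the heavy chains. The atrial chain Myl7, outside the members, lies to the right at 4.87. The calmodulins lie between 0.17 and 0.68, the smooth muscle and nonmuscle heavy chains run from -1.45 (Myh14) to 0.76 (Myh11), and Ppp1r12b lies at -0.98.

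By root mean square difference of centred log2 CPM over the 6 libraries, the genes nearest to Mylpf among 9456 with at least 10 CPM on average were Prkag3 (0.18), Acta1 (0.20) and Unc45b (0.26). Acta1, skeletal alpha-actin, was at 14.5, 20.4 and 35.5 CPM in NF-YA cKO and 3007, 2103 and 2282 CPM in the controls. Those nearest to Myl9 were Nbeal1 (0.03), Ids (0.05) and Pkd1 (0.06), and those nearest to Mylk were Grk5 (0.15), Thsd7a (0.16) and Fbn1 (0.19), the latter low in NF-YA fl/fl replicate 3 at 371 CPM against 1395 and 1520 CPM in the other controls.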

How the data were processed

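Total RNA was sequenced from satellite cells in 6 libraries, 3 of each genotype (500 ng RNA input, stranded total RNA libraries). The authors aligned reads with Bowtie2 to the mm10 transcriptome and quantified them with RSEM, and deposited expected counts and TPM per gene and per transcript. Expected counts were rounded and fitted with edgeR 4.0.16 (quasi-likelihood test, TMM scaling) over 17348 genes or 45367 transcripts whose count exceeded 10 in 2 libraries or more. Genes were called at an adjusted p (Benjamini-Hochberg) under 0.01 and a log2 fold change beyond 1. DESeq2 1.42.0 and limma 3.58.1 gave alternatives. Standard errors are the log2 fold change over the square root of F. Shares and ratios were compared by exact permutation tests, ratios with 0.1 TPM added. The fit was tested on simulated data. Intervals of counting error are not given, and the floor of 3 counts covers counting error only. Labels do not say that libraries came from separate mice, so p-values measure the spread between these samples. No pair of replicates agreed within sampling noise (chi-square per gene 13.1 or more). This value was 13.1 to 48.6 between NF-YA cKO libraries and 45.6 between NF-YA fl/fl replicates 1 and 2. For NF-YA fl/fl replicate 3 it was 122 with replicate 1 and 215 with replicate 2.

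The members and lists were chosen with earlier results of these data known. Named were all members, the called genes of each list with at least 10 CPM (at most 3 per direction), the 3 nearest profiles to Mylpf, Myl9 and Mylk, and Nfya, Xist and Ddx3y. Outside this rule, the remaining named genes, among them Myl7, Ppp1r14c, Mylk3, Myh9 and the marker genes, were chosen after their values were seen. Gene positions are from GENCODE vM21 (GRCm38) and upstream sequence from RefSeq.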

Additional observations from a re-analysis of the deposited data

How the results depend on the processing

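The 4 members called lower were 4 or 5 under all 16 alternatives (DESeq2, DESeq2 size factors, filterByExpr, no filter, limma on TPM, no rounding, an adjusted p under 0.05, edgeR's glmTreat, the replicate block, and each library left out). Myl1, Myl4, Myl6b and Mylpf kept their calls in each, with log2 fold changes of -8.26 to -7.69, -7.84 to -7.10, -4.67 to -4.22 and -7.09 to -6.38. The 1 member called higher, Mylk2, was lost (0) in limma with 1 TPM (adjusted p = 0.0241) or 0.1 TPM added (0.0288), in glmTreat (0.0963) and with the replicate block (0.0131), and was 0 to 1 with single libraries left out. Mylk2 had a log2 fold change of 1.04 to 1.58 throughout, and the cause of the lost calls was not tested. Myl2 was called in DESeq2 (adjusted p = 6.81e-05), without a filter (0.00726) and without NF-YA fl/fl replicate 2 (0.00427), and its log2 fold change ran from -4.35 to -1.61, the smallest in limma with 1 TPM added. Of the other genes of the pathway, 8 to 13 were called lower, and Myl7 was lost (0) in both limma fits and glmTreat, and was 0 in every fit that left out a library. Member transcripts called lower fell from 7 to 0 with the replicate block and to 0 to 4 with a library left out. Where these counts were 0, edgeR, limma or glmTreat still gave 1 member and 1 to 6 other genes higher, and 13 to 15 transcripts lower, at an unadjusted p under 0.05. The difference in sarcomeric share, -66.7 percentage points, was -60.7 without Myl6b and Myl4 on the list. TMM and DESeq2 scaling put the median log2 fold change of all genes at -0.0156 and -0.0368. The labels give same-numbered libraries of the genotypes nothing in common but the number. Their deviations from the group means correlated at 0.165, -0.0693 and 0.0527. NF-YA cKO replicates 1 and 3 correlated most with the control of the same number, and replicate 2 with NF-YA fl/fl replicate 3 (0.0987). Deviations from a mean of 3 libraries are tied together, so these values cannot show whether libraries were handled together. Myl3 had too few counts in these libraries for a fold change.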

Other observations

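Mylk2 lies 16030 bases downstream of Tpx2, a spindle assembly factor gene on the same strand (chromosome 2, 152847964 to 152895321). Tpx2 had 6089, 8207 and 7946 expected counts in NF-YA cKO and 2417, 3927 and 2208 in the controls (log2 fold change 1.03 ± 0.16, SE, n = 3; edgeR adjusted p = 0.00366). The gene was chosen after its values were seen, and its part in the Mylk2 difference was not tested.

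The minor Mylpf transcript XM_006507421.2 did not show the drop of the gene. It had 43.02, 37.07 and 36.98 expected counts in NF-YA cKO and 21.31, 18.06 and 0 in the controls (log2 fold change 1.24 ± 1.38, SE, n = 3; edgeR adjusted p = 0.696), and made up 27.9%, 8.24% and 5.53% of Mylpf TPM in NF-YA cKO against at most 0.0574% in the controls. The assignment of reads between Mylpf transcripts is an estimate, and this transcript was chosen after its values were seen.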
